A study of Mus musculus with 156 samples.

Results

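The mRNAs of 7 GABA-A receptor subunit genes were followed in the mouse striatum: Gabra2, Gabra3, Gabra4, Gabra5, Gabrb1, Gabrb2 and Gabrd. The members were chosen by name, and every probe carrying the name of 1 of them in the probe annotation was taken. This gave 11 probes of 6 genes among 45279 probes naming 19057 genes. No probe named Gabra2 in that annotation, and Gabra2 was not analysed here.

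GABA-A receptors are chloride channels that open on binding GABA and carry most fast inhibition in the brain. Each channel is a ring of subunits, usually alpha and beta subunits with a gamma or a delta subunit. Diazepam binds between certain alpha subunits and a gamma subunit and strengthens the response to GABA, whereas receptors with alpha4 or delta lie mainly outside synapses, carry tonic inhibition and respond little to diazepam. In the striatum most neurons are medium spiny neurons, which use GABA themselves and carry these receptors.

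C57BL/6J mice, 6 to 10 weeks old by the labels and male by the methods, received 1 injection into the peritoneum and were killed 1, 2, 4 or 8 h later. The doses were 5 mg/kg of diazepam, 10 mg/kg of buspirone and of hydroxyzine, 20 mg/kg of bupropion, of tranylcypromine and of mianserin, 3 mg/kg of clozapine, 0.5 mg/kg of risperidone and 1 mg/kg of haloperidol. Controls received saline or 1% Tween 80, or were naive. Every array carried a pool of RNA from 2 mice, and 3 arrays were run per treatment and time.

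The first chip set (18 chips) held the antidepressants bupropion, tranylcypromine and mianserin, the antipsychotics clozapine, risperidone and haloperidol, saline replicates 1 to 3, Tween 80 and naive mice. The second (48 arrays on 8 chips) held the anxiolytics diazepam, buspirone and hydroxyzine with saline replicates 4 to 6. Drugs of the first set were compared with 6 same-time vehicle arrays (saline and Tween 80 together), and drugs of the second with 3 same-time saline arrays. By the methods, clozapine, risperidone and haloperidol were given in Tween 80, and bupropion, tranylcypromine and mianserin in saline. For each drug of the first set, 3 of the 6 vehicle arrays thus had the other vehicle. Diazepam was given in Tween 80, and no Tween 80 array lay on its chips, so that the effect of its vehicle cannot be told apart from that of the drug. Values are log2 signals after quantile normalization. Medium spiny neuron markers ran from a mean of 7.85 (Adcy5) to 15.19 (Ppp1r1b). Cortical excitatory markers ran from 7.84 (Neurod6) to 11.74 (Slc17a7). Each probe has a scale of its own, so these levels do not measure cell content. In pooled tissue, fewer cells of a type and less RNA per cell cannot be told apart.

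Of the 6 genes measured, none of the 11 probes passed a false discovery rate of 5% after any drug. The nearest to that threshold was Gabrd, whose signal was lower after tranylcypromine by both of its probes. Changes of the first of the 2 Gabrb1 probes after diazepam reached 0.92 on the log2 scale, and none exceeded 0.38 in size without 1 chip that read this probe low.

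Signals of the subunit probes in undrugged mice stood on a scale of their own for each probe, so that they describe how well each probe can be followed, not which subunit is most abundant. Of the 11 probes, 6 had a mean above that of the median probe of the array and 5 had a mean below it. Gabra3, an alpha subunit of synaptic receptors, ranged from 8.31 to 9.14 (median 8.76) over the 12 saline arrays of the first set. Gabra4, the alpha subunit that pairs with delta, ranged from 7.59 to 8.14 (median 7.86). Gabra5, an alpha subunit best known from the hippocampus, ranged from 7.47 to 7.94 (median 7.70). The Gabra5 probe was among the dimmest, at percentile 7.84 of all probes by its mean signal.

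The beta subunits, which form the GABA binding site together with alpha, were read by 6 probes. The first Gabrb1 probe (ILMN_2742197) ranged from 12.09 to 12.70 (median 12.41) in saline arrays of the first set. The second (ILMN_2826167) ranged from 10.28 to 10.85 (median 10.69). Gabrb2 had 4 probes, of which the first (ILMN_2696413) ranged from 8.33 to 8.77 (median 8.53) and the others had medians of 8.01, 7.93 and 7.67. Only the first of these 4 lay above the median probe.

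Gabra3 lies at chrX:72432676-72656919, Gabra5 at chr7:57407669-57591016, Gabrb2 at chr11:42419515-42632591 and Gabrd at chr4:155384979-155398098 (GRCm38.p6). Gabra4 and Gabrb1 lie head to head on chromosome 5, Gabra4 on the minus strand at chr5:71569734-71658308 and Gabrb1 on the plus strand at chr5:71657921-72149572, so that their 5′ ends overlap by 388 bases. The windows around both starts (RefSeq, GRCm38.p6) are Gabra4 chr5:71658259-71658558 on the minus strand and Gabrb1 chr5:71657671-71657970 on the plus strand. They do not overlap each other and are shown because these neighbouring genes start close together on opposite strands. GGGCGG, or its reverse complement CCGCCC where the match is on the other strand, is in capitals.
Gabra4: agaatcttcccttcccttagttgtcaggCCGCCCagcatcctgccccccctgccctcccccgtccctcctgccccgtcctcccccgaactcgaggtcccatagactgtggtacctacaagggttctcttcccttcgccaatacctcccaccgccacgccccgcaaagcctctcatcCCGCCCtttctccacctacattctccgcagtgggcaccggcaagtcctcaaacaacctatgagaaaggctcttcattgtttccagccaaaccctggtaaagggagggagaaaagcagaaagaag
Gabrb1: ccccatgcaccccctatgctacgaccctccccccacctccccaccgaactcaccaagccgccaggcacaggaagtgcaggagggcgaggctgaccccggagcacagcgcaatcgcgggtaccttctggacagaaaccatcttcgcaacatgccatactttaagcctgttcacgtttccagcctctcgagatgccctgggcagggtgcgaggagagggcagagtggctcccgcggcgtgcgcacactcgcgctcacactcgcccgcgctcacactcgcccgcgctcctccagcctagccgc
The Gabra4 window held 2 such matches and the Gabrb1 window 0, and 35.7% of all 32851 promoter windows held at least 1. Over the arrays of the first set, deviations of Gabra4 from its group means had an r of 0.03 with those of the first Gabrb1 probe and of 0.10 with the second. Over the 48 arrays of the second set, which share 8 chips, r was -0.54 and -0.20.

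Gabrd encodes the delta subunit, and both of its probes were bright. The first (ILMN_2698299) ranged from 11.41 to 11.97 (median 11.85) and the second (ILMN_2865082) from 11.49 to 12.12 (median 11.67). Naive and Tween 80 mice overlapped with saline mice at every one of the 11 probes.

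**Figure D1:**
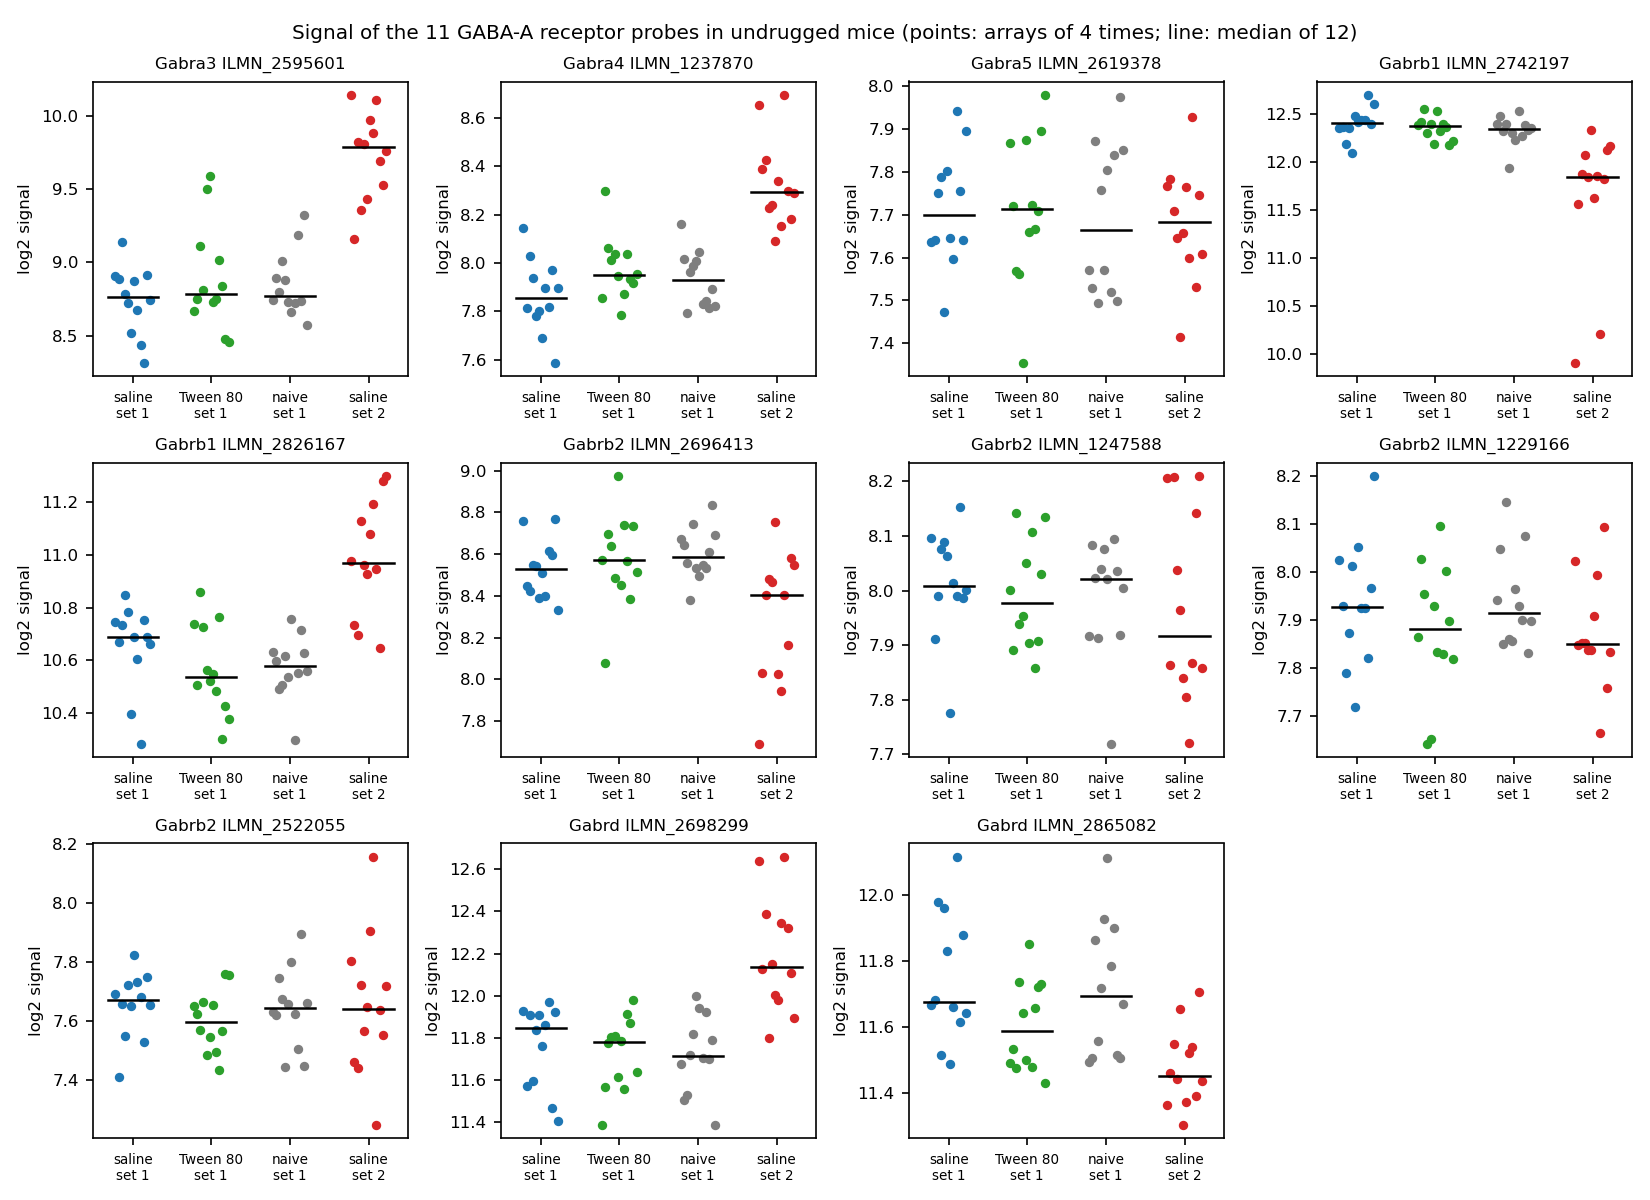
Log2 signal of each GABA-A receptor probe in undrugged mice, with 1 panel per probe, each point an array of 12 per group and the line the median. Saline, Tween 80 and naive arrays of the first chip set overlap, while saline arrays of the second set lie higher for Gabra3 (medians 9.79 against 8.76) and mostly lower for the first Gabrb1 probe (11.85 against 12.41).

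The same treatment read differently on the 2 chip sets. Saline mice of the second set were higher than those of the first by 0.98 for Gabra3 (means 9.72 and 8.74, n = 12 each), with no overlap. They were higher by 0.47 for Gabra4. The probes of 1 gene went opposite ways, since the first Gabrb1 probe differed by -0.79 and the second by 0.33, and the first Gabrd probe by 0.44 and the second by -0.27. Chip set and group of mice cannot be told apart here, so each drug was read against its own set. The spread within groups was also wider in the second set for 10 of the 11 probes, as it was for 82.7% of all probes, and the spread was therefore estimated within each set.

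Of the second set, 1 chip stood apart most for the first Gabrb1 probe. Its 6 arrays read the first Gabrb1 probe at 9.90 to 10.48 (median 10.33), while the 42 other arrays of the set read it at 11.30 to 12.41 (median 11.88) and those of the first set at 11.94 to 12.72 (median 12.37). The second Gabrb1 probe was not low on that chip, with 10.82 to 11.54 against 10.56 to 11.30 on the others. The 6 arrays came from 6 different groups, namely diazepam at 2 and 8 h, buspirone at 4 h, hydroxyzine at 2 h and saline at 1 and 4 h. Their array medians before normalization (6.92 to 7.02) were the lowest of all 26 chips, and 2.91% of all probes read over 1 log2 unit lower there than on the rest of the set. On the same chip the first Gabrd probe read 0.55 higher and Gabra3 0.47 higher. Another chip of the set went the other way, with 660 probes over 1 log2 unit higher than on the rest. It read the first Gabrb1 probe 0.73 higher, at 12.25 to 12.40. Diazepam arrays of 1 and 4 h and a saline array of 2 h lay on this second chip, which was kept where the low chip was left out.

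**Figure D2:**
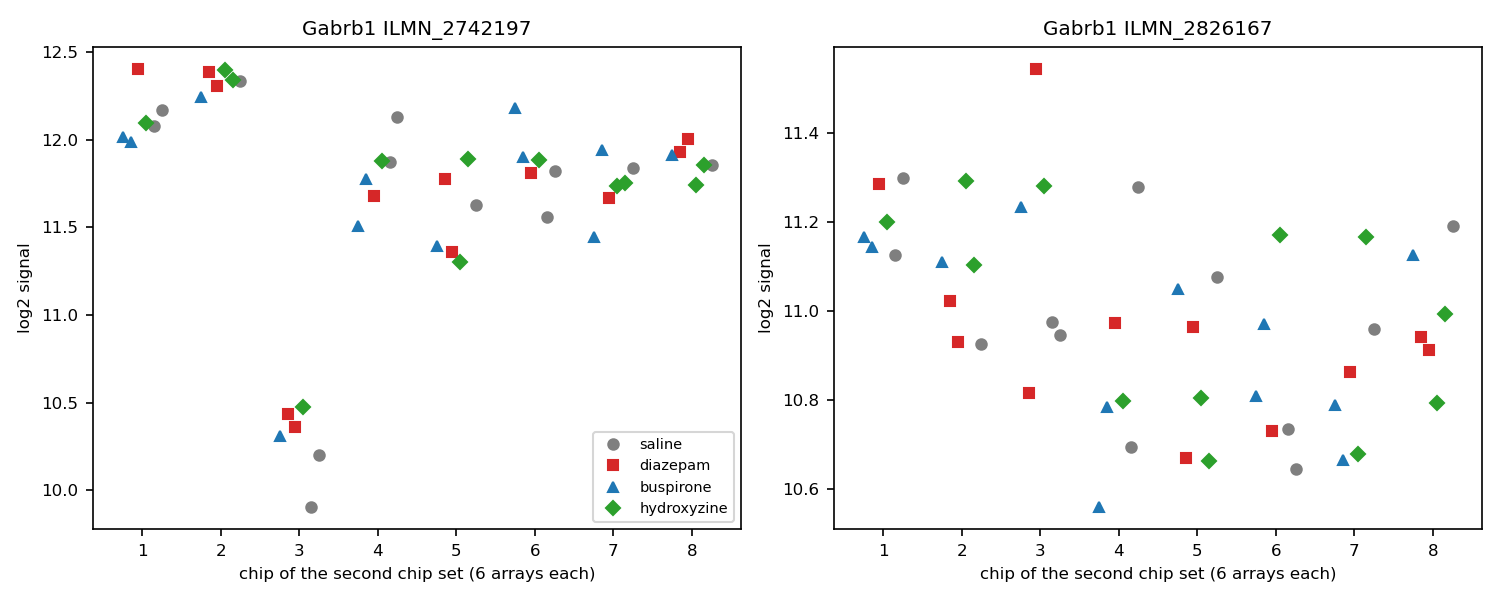
Log2 signal of both Gabrb1 probes on the 8 chips of the second set, 6 arrays each, with colour and shape for the treatment. On the third chip all 6 arrays of the first probe lie at 9.90 to 10.48, below all others, while the second probe lies at 10.82 to 11.54 there.

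Diazepam, which acts on these receptors, was compared with same-time saline to ask whether its target's own mRNAs moved within 8 h. No member was called over the 4 times by limma's moderated F test with Benjamini-Hochberg adjustment over all probes, and 1 of 45279 probes was called in all (0.00221%). At single times diazepam called 1 probe at 1 h and 1 at 4 h (0.00221% each) and 0 at 2 and 8 h. No member was among them. Of the members, 1 or 2 had an unadjusted p under 0.05 at each time. Of all 45279 probes, 3845, 4544, 4234 and 2548 did so at 1, 2, 4 and 8 h. Over the 4 times and without adjustment, 3 of the 11 probes had an F p under 0.05, as did 5936 of all probes. Under 1 spread for both chip sets, 3 members (Gabra5, the first Gabrb1 probe and a dim Gabrb2 probe) and 6655 probes (14.7%) were called. The median change of the 11 probes was -0.13 at 1 h, -0.04 at 2 h, -0.05 at 4 h and -0.02 at 8 h, beside -0.02, 0.02, -0.02 and 0.02 over all probes.

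Among the alpha subunits, Gabra4 was lowest after diazepam at 1 h. The diazepam arrays read 7.80, 8.02 and 8.13 and the saline arrays 8.65, 8.39 and 8.43, so that the groups did not overlap. The difference was -0.51 (95% interval -0.93 to -0.08, adjusted p = 0.588, limma). It was -0.42 without the chip that stood apart. By 2 h the difference was 0.11, with overlapping arrays. Gabra3 at 2 h read 10.44, 9.84 and 9.72 after diazepam and 9.36, 9.81 and 9.44 after saline, a difference of 0.46 (0.01 to 0.92, adjusted p = 0.491, limma). Its highest array was on the chip that stood apart, without which the difference was 0.24. At 4 h Gabra3 read 9.37, 9.59 and 9.81 after diazepam and 9.98, 9.88 and 10.11 after saline, a difference of -0.40 (-0.86 to 0.06, adjusted p = 0.554, limma) with no overlap and the opposite sign. Here the saline array at 10.11 was on the chip that stood apart, which read Gabra3 0.47 higher. Gabra5 at 8 h read 7.87, 7.87 and 8.46 after diazepam and 7.53, 7.75 and 7.61 after saline. Every diazepam array was higher, by 0.44 on average (0.19 to 0.69, adjusted p = 0.832, limma). The array at 8.46 was also on that chip, and the difference fell to 0.24 without it.

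Among the beta subunits, the first Gabrb1 probe alternated in sign, with 0.92 at 1 h, -0.78 at 2 h, 0.90 at 4 h and -0.80 at 8 h. The intervals of the 1 and 4 h differences left out 0 narrowly, from 0.03 and 0.01 upward (adjusted p = 0.588 and 0.534, limma). At 1 h the diazepam arrays read 12.39, 11.77 and 11.93 and the saline arrays 9.90, 11.56 and 11.88. The saline array at 9.90 lay on the chip that stood apart, and each of the other times had 1 such array as well, of diazepam at 2 and 8 h and of saline at 4 h. At 2 h the diazepam arrays read 10.43, 11.81 and 11.68 and the saline arrays 12.08, 11.84 and 12.34, without overlap even beyond the array of that chip. Without that chip the 4 differences were 0.31, -0.34, 0.38 and -0.36, each with an SE of 0.26. With the chip kept and chips as a fixed block they were 0.37, -0.07, 0.08 and -0.09. The second Gabrb1 probe changed by -0.16 to 0.08 over the times.

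The first Gabrb2 probe at 2 h read 7.79, 7.67 and 8.48 after diazepam and 8.48, 8.47 and 8.75 after saline. The difference was -0.59 (-1.11 to -0.06, adjusted p = 0.480, limma), with 1 diazepam array among the saline values. It was -0.49 without the chip that stood apart. The second Gabrb2 probe (ILMN_1247588) at 8 h read 7.71, 7.66 and 7.70 after diazepam and 8.14, 8.21 and 7.86 after saline, a difference of -0.38 (-0.60 to -0.16, adjusted p = 0.832, limma). Its neighbours in the gene did not move alike, with -0.24, -0.15 and 0.18 at 8 h for the other 3 probes.

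The delta subunit forms receptors that respond little to diazepam. Its first probe at 1 h read 11.52, 12.01 and 12.29 after diazepam and 12.64, 12.12 and 12.39 after saline, a difference of -0.45 (-0.94 to 0.05, adjusted p = 0.594, limma). The groups overlapped, and the second Gabrd probe differed by -0.13 at that time. Over the later times the first probe gave 0.27, -0.35 and 0.26 and the second -0.09, -0.12 and -0.02. The chip that stood apart read the first Gabrd probe 0.55 higher. That chip held a saline array at 1 and 4 h and a diazepam array at 2 and 8 h. The first probe was thus lower after diazepam at the times when that chip held saline. It was higher at the times when that chip held diazepam, so these differences mix drug and chip.

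**Figure D3:**
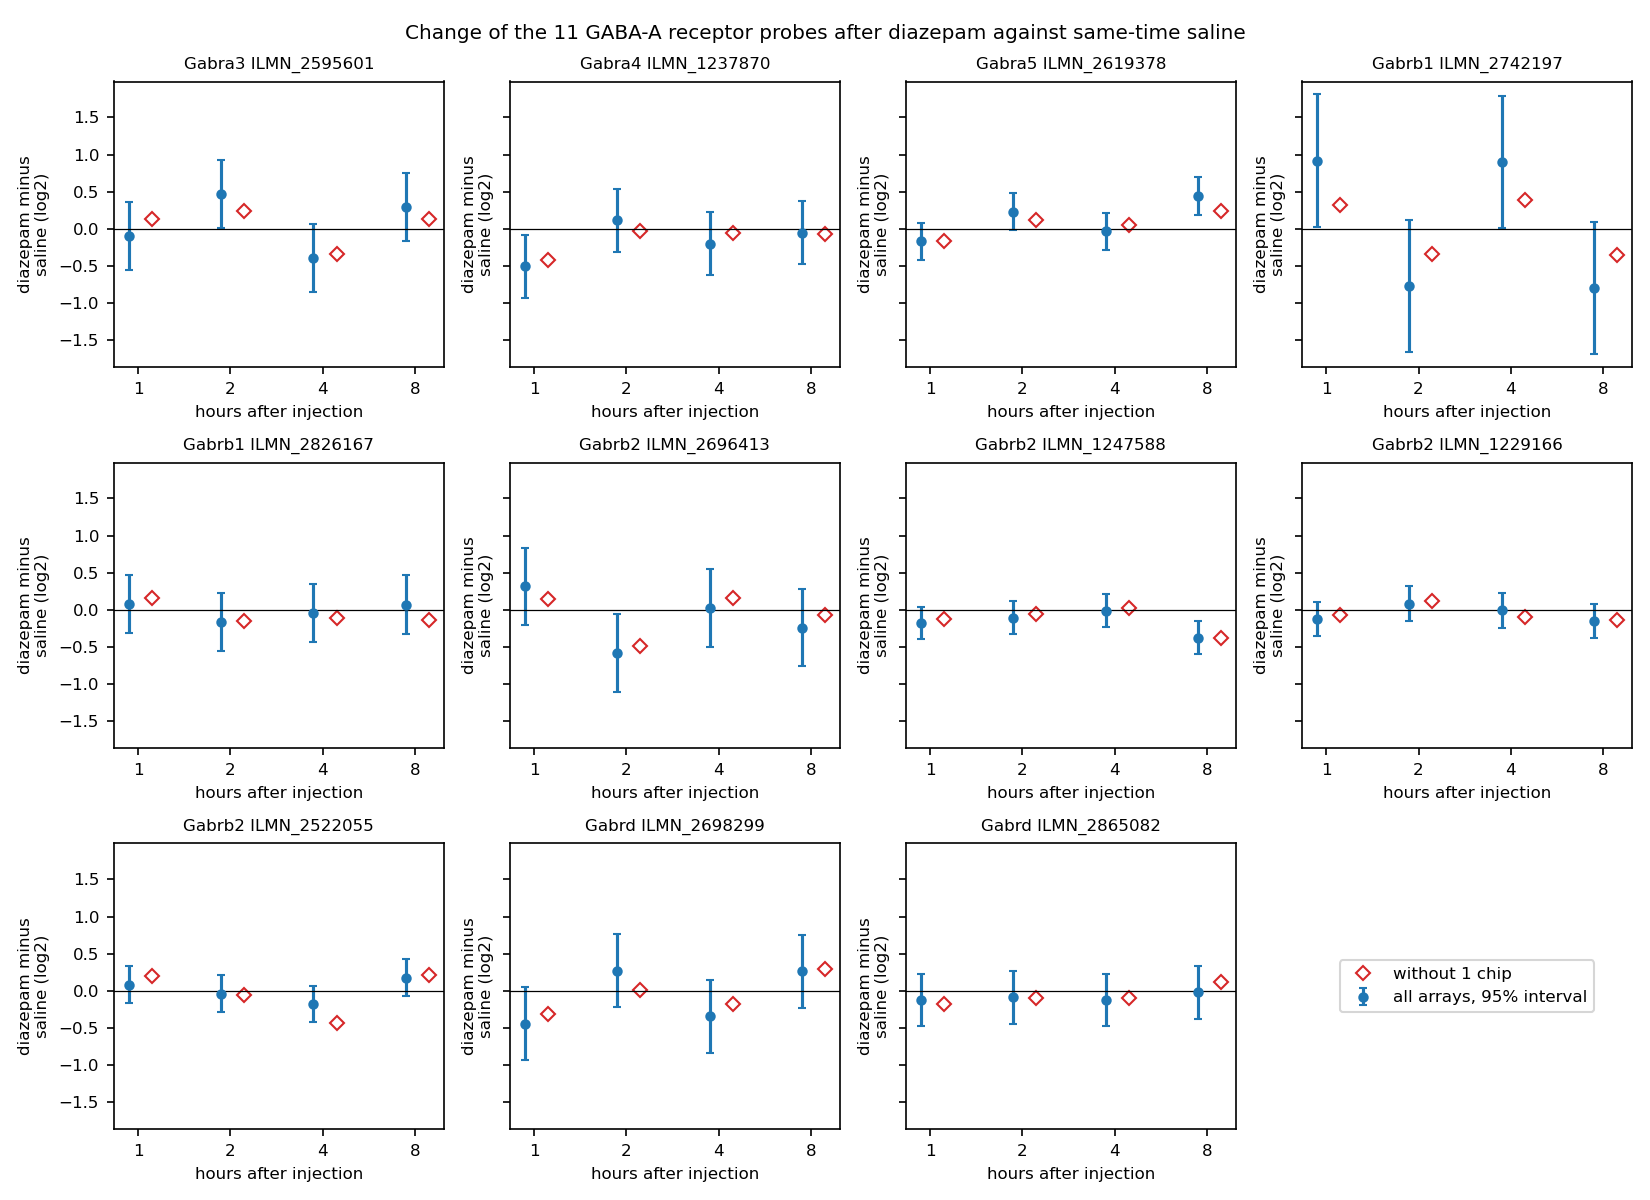
Change of each GABA-A receptor probe after diazepam (log2, diazepam minus same-time saline, 3 arrays each) with its 95% interval, by hours after injection; open diamonds leave out the chip that stood apart. The swings of the first Gabrb1 probe between 0.92 and -0.80 shrink to between 0.38 and -0.36 without that chip.

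The saline arrays are shared by the 3 anxiolytics, so diazepam was also set directly against buspirone and hydroxyzine, which act on other receptors. No member was called, with 4 of all probes called (0.00883%) by the same F test and 2364 at an unadjusted p under 0.05, none of them a member over the 4 times. At single times this comparison called 0.00663% of probes at 1 h and 0.00442% at 4 h, and 0 at 2 and 8 h. The second Gabrb2 probe at 8 h differed by -0.23 and the fourth (ILMN_2522055) by 0.25 between diazepam and the other anxiolytics, without overlap and with an adjusted p of 0.605 (limma). Against saline, buspirone (2 probes called, 0.00442%, and 1795 unadjusted) and hydroxyzine (0 called, 0%, and 2226 unadjusted) also gave no call among the members, and none of the members had an unadjusted F p under 0.05. After buspirone the largest moderated statistic was that of Gabra4 at 1 h, where buspirone arrays read 7.86, 8.24 and 8.04 against the same 3 saline arrays, a difference of -0.44 (adjusted p = 0.736, limma). After hydroxyzine it was that of Gabra5 at 8 h, with 8.15, 7.85 and 7.83 against the same saline arrays as diazepam, a difference of 0.31 (adjusted p = 1.00, limma). In both cases the drug and saline arrays did not overlap.

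Tranylcypromine, an inhibitor of monoamine oxidase, changed 719 probes over the 4 times (1.59% of all), and none of them was a member. Without adjustment, 3 of the 11 had an F p under 0.05, as did 5009 of all 45279 probes. At single times tranylcypromine called 0.126% of probes at 1 h, 0.197% at 2 h, 0.448% at 4 h and 1.53% at 8 h, again without a member. Both Gabrd probes read lower than vehicle at all 4 times. At 4 h the first probe read 10.97, 11.55 and 11.53 after tranylcypromine, 11.76, 11.86 and 11.97 after saline and 11.78, 11.56 and 11.91 after Tween 80. Every tranylcypromine array lay below every vehicle array, though 1 of them, at 10.97, was far below the rest. The difference was -0.46 ± 0.13 (SE, n = 3 and 6, adjusted p = 0.101, limma). At 1, 2 and 8 h it was -0.04, -0.11 and -0.25.

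The second Gabrd probe differed by -0.18 at 1 h, -0.35 at 2 h, -0.37 at 4 h and -0.37 at 8 h, each with an SE of 0.14. At 4 h its arrays read 10.97, 11.41 and 11.63 after tranylcypromine against 11.48 to 12.12 in the 6 vehicle arrays. At 8 h they read 11.34, 10.86 and 11.69 against 11.43 to 11.88. The groups overlapped at each of these times. Over the 4 times the adjusted F p of the second probe was 0.0555 and that of the first probe 0.126 (limma), so that neither passed. The call was near the threshold, and the second probe passed it in 8 of 22 alternatives, with the lowest adjusted F p of a member ranging from 0.00749 to 0.238. It passed without tranylcypromine replicate 3 (0.0124) and without saline replicate 1 (0.0178), and it did not pass with chips as a fixed block (0.0742).

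None of the 36 comparisons of a drug at 1 time had a same-time vehicle array on the chip of each drug array. For 11 of the 12 tranylcypromine arrays the chip held a vehicle array of some time, and the tranylcypromine array was lower for the first Gabrd probe in 7 (median -0.11) and for the second in 8 (median -0.20). Among replicate arrays of the first set, the second Gabrd probe moved with the mean of 8 medium spiny neuron markers (r = 0.72, with group means removed) and the first did so less (r = 0.43). In the second set these were 0.65 and 0.13 over 48 arrays. The arrays share chips and tissue dissection. The mean level of these 8 markers ran from 12.16 to 12.70 after tranylcypromine and from 12.22 to 12.69 after vehicle, with overlap at each time and differences of -0.08 to 0.06, and 0 of the 8 were called. The mean of 5 cortical excitatory markers had an r of -0.40 with the second Gabrd probe in the first set. It was lower after tranylcypromine at 1 h (9.12 to 9.45 against 9.53 to 10.23) and overlapped with vehicle later. The mean of 5 striatal interneuron markers had an r of 0.54 with the second Gabrd probe and of 0.28 with the first. It overlapped with vehicle at each time. Of other cell types, 2 of 6 microglia markers (Cx3cr1, P2ry12), 1 of 7 oligodendrocyte markers (Opalin) and 1 of 5 endothelial markers (Tek) were called with their largest change downward, and 1 of 6 astrocyte markers (Gjb6) rose. The endothelial mean at 4 h, the time of the largest change of the first Gabrd probe, was 9.76 to 9.88 against 10.12 to 10.41 after vehicle. At 8 h the microglia mean was 10.10 to 10.43 against 10.56 to 10.79, and the oligodendrocyte mean 13.24 to 13.69 against 13.76 to 13.86. In the first set the endothelial mean had an r of 0.11 with the first Gabrd probe and of -0.28 with the second. For microglia these were 0.11 and 0.18, and for oligodendrocytes 0.24 and 0.30. The part of cell composition in the Gabrd values was not tested.

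**Figure D4:**
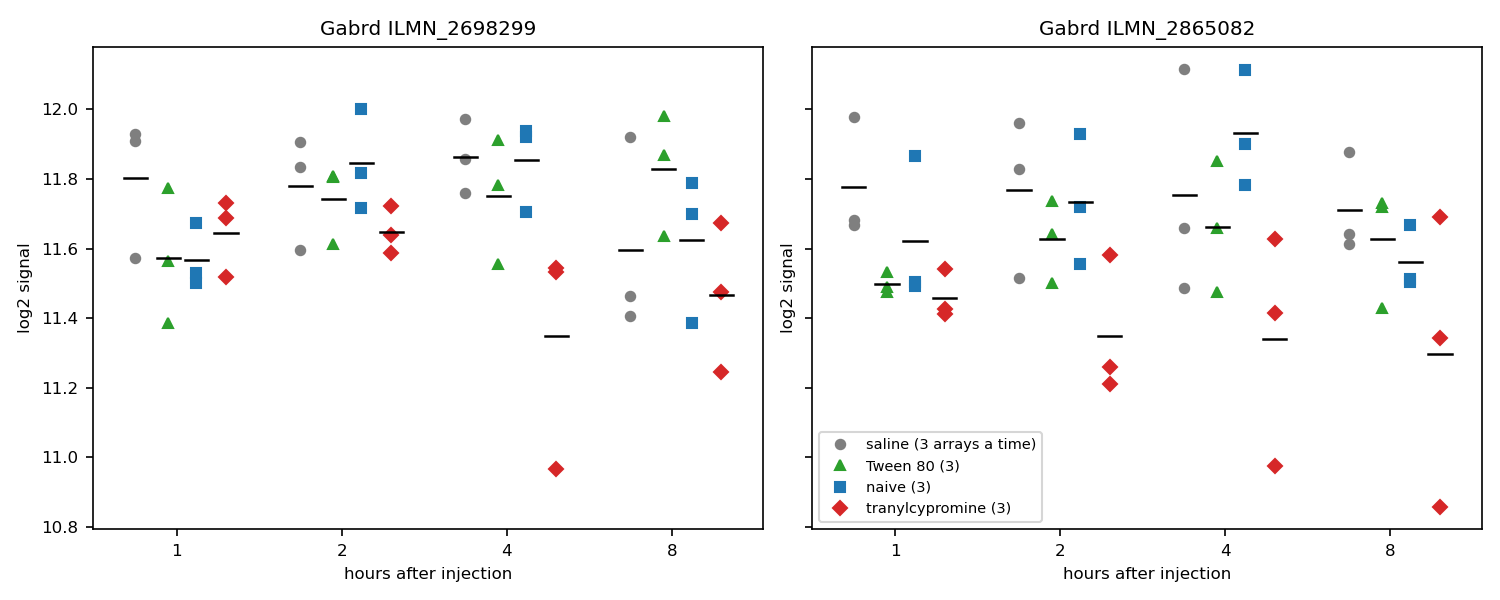
Log2 signal of both Gabrd probes in each array of the first chip set, by hours after injection and treatment, with black lines at group means of 3 arrays. Tranylcypromine arrays of the first probe at 4 h lie at 10.97 to 11.55, below all 6 vehicle arrays; at the other times, and for the second probe, the groups overlap.

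For the other drugs of the first set, no member was called. Mianserin called 1474 probes (3.26%), risperidone 554 (1.22%), haloperidol 59 (0.13%), clozapine 23 (0.0508%) and bupropion 0 (0%, 2004 at an unadjusted p under 0.05). At single times mianserin called 0%, 0.479%, 1.31% and 1.34% of probes at 1, 2, 4 and 8 h, clozapine 0.00663%, 0.00883%, 0.0265% and 0%, risperidone 0.0199%, 0.298%, 1.16% and 0.0133%, and haloperidol 0.0398%, 0.0398%, 0.0177% and 0.0133%, with no member among them. The largest moderated statistic after mianserin was that of a dim Gabrb2 probe (ILMN_1229166) at 8 h, which read 7.77, 7.64 and 7.68 against 7.82 to 8.20 in vehicle arrays, a difference of -0.25 (adjusted p = 0.102, limma) with no overlap. After clozapine Gabra4 at 4 h read 7.91, 8.23 and 8.23 against 7.69 to 8.04, a difference of 0.27 (adjusted p = 0.703, limma). After bupropion the second Gabrb1 probe at 2 h read 10.63, 10.27 and 10.27 against 10.40 to 10.85, a difference of -0.25 (adjusted p = 0.985, limma) that was 0.016 under median scaling. After risperidone Gabra4 at 1 h read 7.84, 7.64 and 8.02 against 7.82 to 8.30, a difference of -0.20 (adjusted p = 1.00, limma). After haloperidol the same dim Gabrb2 probe at 2 h read 7.89, 7.96 and 8.03 against 7.64 to 8.01, a difference of 0.16 (adjusted p = 0.607, limma). In all but the mianserin comparison the groups overlapped.

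Over the 264 changes of the first set (11 probes, 6 drugs, 4 times), none exceeded 0.5 in size and 4.17% had an unadjusted p under 0.05, against 6.40% for all probes. Changes in the first set ran from -0.30 to 0.28 for Gabra3, from -0.20 to 0.27 for Gabra4, from -0.16 to 0.17 for Gabra5 and from -0.18 to 0.14 for the first Gabrb1 probe. They ran from -0.24 to 0.28 for the first Gabrb2 probe and from -0.46 to 0.23 for the first Gabrd probe. Of 132 changes of the second set, 10 exceeded 0.5 (7.58%, against 3.10% for all probes), of which 8 belonged to the first Gabrb1 probe. A test of whether the change differed between the times called no member after any drug. It called 0.479% of all probes after mianserin, 0.395% after tranylcypromine, 0.203% after risperidone, 0.0177% after haloperidol, 0.00221% after clozapine and 0% after the other 4 drugs. Both Gabrd probes were lower than vehicle at all times also after risperidone (-0.22 to -0.07) and haloperidol (-0.14 to -0.01), which share their vehicle arrays with tranylcypromine. After hydroxyzine, on the second set, 7 of 8 Gabrd changes were lower (-0.45 to 0.09). The count was 6 of 8 after diazepam and after buspirone, 5 after mianserin and after clozapine, and 3 after bupropion. Drugs of the same set share their vehicle arrays, so these counts are not independent. In the second set, the saline arrays of 1 and 4 h included arrays on the chip that stood apart. That chip read the first Gabrd probe 0.55 higher.

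**Figure D5:**
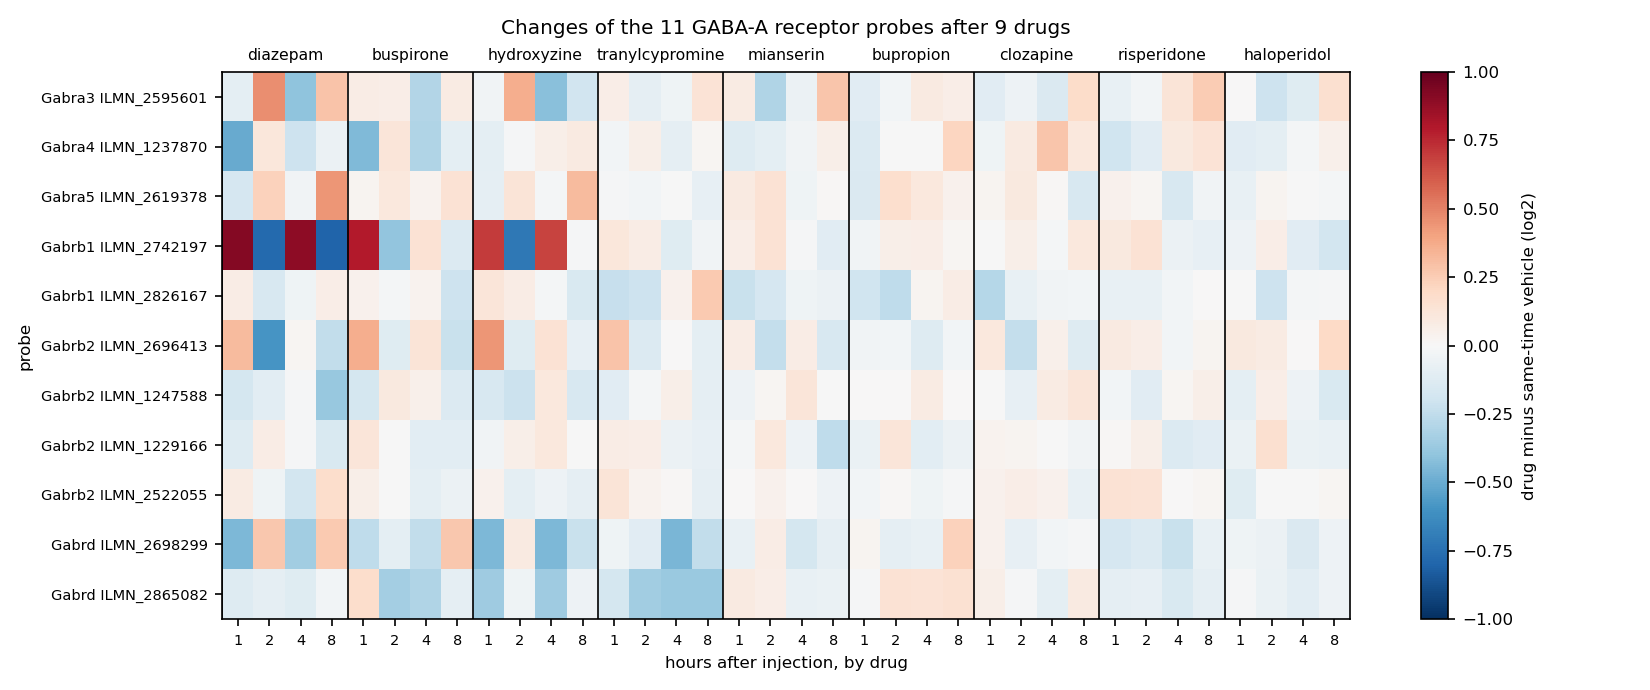
Changes of the 11 probes (rows) at 4 times after each of 9 drugs (columns), log2 drug minus same-time vehicle, red higher and blue lower. The strongest colours belong to the first Gabrb1 probe after the 3 drugs of the second chip set (up to 0.92), and the blue run for Gabrd after tranylcypromine reaches -0.46.

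Vehicle and sampling time were compared in undrugged mice. Vehicle against naive mice called 0 probes (0%, 1483 at an unadjusted F p under 0.05, none a member). Tween 80 against saline also called 0 (0%, 2290 unadjusted, 2 of them members). The largest such difference was that of Gabra3 at 2 h, where Tween 80 arrays read 8.81, 9.50 and 9.59 and saline arrays 8.78, 8.72 and 8.51. Tween 80 was higher by 0.63 (0.24 to 1.02, adjusted p = 0.430, limma), with no overlap, and naive arrays read 9.01, 8.88 and 8.73. Both Gabrb1 probes were lower after Tween 80 than after saline at 8 h, with differences of -0.32 and -0.33 (adjusted p = 1.00, limma). Time in undrugged mice called 475 probes (1.05%), and no member had an unadjusted F p under 0.05.

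Of 8 other GABA-A subunit genes measured, 1 was called, and only after mianserin, which called 3.26% of all probes. Gabrg3, a gamma subunit, fell after mianserin, with changes of -0.15 at 1 h, -0.63 at 2 h, -0.51 at 4 h and -0.05 at 8 h. Its adjusted F p by limma was 9.77e-06. Of the cell type markers, P2ry12 of microglia (0.22, 0.45, -0.53 and -1.26 at the 4 times) and Penk of medium spiny neurons (0.29, 0.58, -0.35 and -0.43) were also called after mianserin, and their part in the Gabrg3 values was not tested. Other lists held 28 measured genes of GABA synthesis and transport, receptor scaffolds and trafficking, GABA-B receptors and chloride transporters, with Dbi and Tspo. None of them was called after any of the 9 drugs, which called from 0% (bupropion, hydroxyzine) to 3.26% (mianserin) of all probes.

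Probes of the same gene often did not move together between replicate arrays. Deviations from group means correlated at r = 0.50 for the 2 Gabrd probes over the arrays of the first set and at 0.05 over the 48 of the second. For the 2 Gabrb1 probes r was -0.14 and -0.02, or 0.29 without the chip that stood apart, and for the 6 pairs of Gabrb2 probes it ran from -0.10 to 0.14 in the first set. The genes most like the first Gabrd probe were Rundc1 (r = 0.63), Hpca (0.62) and Inf2 (0.62) in the first set, with 0.27, 0.59 and 0.67 in the second. Those most like the first Gabrb2 probe were Prrt1, Snurf and Rnf14 (0.71, 0.71 and 0.70), with 0.52, 0.38 and 0.29 in the second. For Gabra3 they were Limk1, Tatdn2 and Lsm14b (0.68, 0.67 and 0.64), with -0.09, 0.44 and 0.23. For Gabra4, Gabra5 and the first Gabrb1 probe the highest r was 0.56, 0.50 and 0.56.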

How the data were processed

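RNA from the striatum, pooled from 2 mice per array, was hybridised to Illumina bead arrays (6 arrays per chip, 26 chips). The authors deposited a non-normalized table, whose values are log2 signals, and a normalized table, which was not used for the main tests. The methods name background subtraction, quantile normalization, log2 and z-scores, and do not say which of these the deposited tables had. The number of arrays limits the precision, and no replicate pair was identical.

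From the non-normalized log2 values, all arrays were quantile normalized together, after dropping 2 of 45281 probes that lacked a value on some array. limma 3.58.1 (R 4.3.3) was fitted to each chip set on its own with 1 mean per drug and time, with an intensity trend, and p-values were adjusted by Benjamini-Hochberg over all 45279 probes. An F test covered the 4 times, and a probe was called at a false discovery rate of 5%. The fit was checked on simulated data. Of the probes, 34883 had 1 gene symbol, 18 several and 10378 none, and only those with 1 were named. Where a gene stands for a list, its brightest probe was used.

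Values in every array are given, for diazepam, for the largest change of the brightest probe of each gene and, for each other drug, for the member with the largest moderated statistic. The second Gabrb2 probe, Gabra3 at 4 h and the first Gabrb1 probe at 2 h after diazepam, the chip that stood apart, Gabrd after tranylcypromine at further times and the Tween 80 differences were singled out after their values were seen. The genes and lists were chosen with earlier results of these data known. Alternatives changed the scaling, the spread, the probe filter, the block, the controls and the replicates. Nothing in the labels says that replicates were handled apart beyond the pools, so p-values measure the spread between these samples.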

Additional observations from a re-analysis of the deposited data

Results flagged for a closer look

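Of 44 groups of 4 to 10 arrays examined, 2 held an array far from the others, and chance gives about 1 in 20. Gabra4 read 7.59 in saline replicate 2 of the first chip set at 8 h, where the other 5 vehicle arrays read 7.90 to 7.97. Gabra5 read 7.94 in saline replicate 3 at 4 h, where the other 5 read 7.60 to 7.72.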

How the results depend on the processing

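Diazepam called 0 members in 18 of 19 alternatives and 3 with 1 spread for all arrays of both chip sets, where 14.7% of all probes were called. Tranylcypromine called 0 members in 14 of 22 alternatives. It called 1, the second Gabrd probe, with chips as a random block (adjusted F p by limma's F test 0.0454), with only probes above the median signal (0.0302), without the intensity trend (0.0422), with a robust prior (0.0463) and against its own vehicle only (0.0423). These settings called 1.77%, 3.69%, 1.70%, 1.56% and 1.24% of the probes tested, in that order. It called 2 with all control arrays of both chip sets on z-scores (1.66% of all probes), and 0 to 1 when 1 replicate was left out (0.844% to 1.44%). The change of the second Gabrb1 probe after bupropion at 2 h turned from -0.25 to 0.016 under median scaling. With the replicate number as a block, 10 of 10 counts were 0, and the lowest adjusted F p of a member after tranylcypromine was 0.0619. Same-numbered arrays did not deviate together (mean r -0.017, against 0.237 on the same chip), so that they share only a number. Leaving out the chip that stood apart, an alternative chosen after seeing the data, called 0 members. Of the 11 probes, 5 were dimmer than the median probe, which limits what their values can show.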
